A study of Homo sapiens with 40 samples.

Results

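The genes described here encode the ligands of the ERBB receptors: EGF, TGFA, AREG, EREG, HBEGF, BTC, NRG1, NRG2, NRG3 and NRG4. They are a family fixed by gene name, and were taken as the rows of the deposited count table whose gene name equals 1 of these symbols, and all 10 were found among the 44584 genes of the table. The samples were BT474, a HER2-positive, trastuzumab-sensitive human breast cancer cell line, and BT474R, a single resistant clone (clone 5) obtained by growing BT474 under trastuzumab, an antibody against HER2. Each line was serum starved and collected at once (T0), or given EGF at 50 ng/mL, heregulin (HRG, a neuregulin 1 protein) at 10 ng/mL or water (vehicle) in fresh starvation medium for 1, 12 or 24 h. This gave 20 groups of 2 libraries, and 40 libraries of mRNA in all. Treatments were done in duplicate, but neither the labels nor the methods say how far the 2 libraries of a group were independent cultures, so the tests measure the spread between these libraries, which may be technical.

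ERBB ligands are made as membrane-bound precursors, and proteases of the ADAM family cut many of them at the cell surface to release the active growth factor. EGF, transforming growth factor alpha (TGFA) and amphiregulin (AREG) bind EGFR. Epiregulin (EREG), heparin-binding EGF-like growth factor (HBEGF) and betacellulin (BTC) bind EGFR and ERBB4. Neuregulins (NRG1 to NRG4) bind ERBB3, ERBB4 or both, and ERBB2 (HER2) has no ligand of its own but pairs with the others. In breast epithelium a cell that makes such a ligand can activate its own receptors, which is called autocrine signalling. AREG, EREG and HBEGF are known as genes that respond to activated EGFR in many epithelial cells.

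Totals of counts per library ran from 19200632 to 29098915 in BT474 and from 16794594 to 33387936 in BT474R, and levels are given as CPM, counts scaled by the TMM-adjusted total of the library. The detection limit was set at 3 counts or fewer in both libraries of a group, which is between 0.0929 and 0.18 CPM depending on the library. Known response genes were called against vehicle at 1 h in both lines. EGR1 and FOS, immediate early genes, rose with EGF by 3.75 and 4.13 (log2) in BT474 and by 3.77 and 2.82 in BT474R. DUSP6, a feedback phosphatase, rose with both ligands in both lines. EGR1, FOS and DUSP6 were also called higher with vehicle at 1 h than at T0 in BT474, as was EGR1 in BT474R. The 6 luminal markers summed to between 10576 and 14339 CPM in BT474 and to between 9839 and 16274 CPM in BT474R, the lowest of them in BT474R being GATA3 with a mean of 35.4 CPM. The leukocyte genes PTPRC and CD3E were at or under the floor in every library of both lines, and the 4 leukocyte markers summed to at most 5.49 CPM. The 3 basal markers summed to at most 10.3 CPM and the 2 endothelial markers to at most 23.0 CPM.

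AREG, EREG, BTC and EPGN (a further ERBB ligand gene, outside the list of 10) lie next to each other on chromosome 4. In GENCODE v44 on GRCh38, EPGN spans chr4:74308470-74316789, EREG chr4:74365145-74388749, AREG chr4:74445136-74455005 and BTC chr4:74744759-74794523. EPGN, EREG and AREG are on the plus strand and BTC is on the minus strand, and no other protein-coding gene lies wholly between neighbours. EREG ends 56386 bases before AREG starts, and AREG ends 289753 bases before BTC. EGF lies on the same chromosome at 109912883 to 110013766, TGFA on chromosome 2 at 70447284 to 70554193 and HBEGF on chromosome 5 at 140332843 to 140346603. NRG2 is on chromosome 5 at 139846779 to 140043299, NRG3 on chromosome 10 at 81875194 to 82987179 and NRG4 on chromosome 15 at 75935969 to 76059795. The counts are of reads over exons. Exons of EGF, TGFA, AREG, EREG, HBEGF and BTC shared no base with exons of another gene, while 1918 exon bases of NRG4 overlap FBXO22 on the opposite strand, and NRG2 and NRG3 share 234 and 78 exon bases with antisense genes, so NRG4 counts above all are uncertain where the counting ignored strand, which the sources used here do not state.

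The promoters of the 4 genes that rose with a ligand in at least 1 comparison are shown, as the 250 bases before the RefSeq start (GRCh38.p14), with capitals where a searched motif matched. The motifs were TGACGTCA (the cAMP response element, CRE), TGANTCA (AP-1), CCGGAAGT (ETS) and GCGTGGGCG (EGR1), on both strands. AREG carried the full CRE, starting 65 bases before its start, at chr4:74444886-74445135, plus strand. EREG (chr4:74364895-74365144, plus strand), BTC (chr4:74794524-74794773, minus strand) and HBEGF (chr5:140346604-140346853, minus strand) had no match to the 4 motifs in this window.
AREG: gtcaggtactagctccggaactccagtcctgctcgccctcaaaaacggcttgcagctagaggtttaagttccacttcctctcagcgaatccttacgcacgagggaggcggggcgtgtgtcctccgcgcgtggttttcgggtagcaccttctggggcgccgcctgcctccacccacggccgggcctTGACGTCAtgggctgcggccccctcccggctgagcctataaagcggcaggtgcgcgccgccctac
EREG: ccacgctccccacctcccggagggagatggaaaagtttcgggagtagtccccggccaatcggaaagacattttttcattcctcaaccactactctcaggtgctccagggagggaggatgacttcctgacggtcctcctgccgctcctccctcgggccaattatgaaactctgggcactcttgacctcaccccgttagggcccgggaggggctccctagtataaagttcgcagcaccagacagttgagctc
BTC: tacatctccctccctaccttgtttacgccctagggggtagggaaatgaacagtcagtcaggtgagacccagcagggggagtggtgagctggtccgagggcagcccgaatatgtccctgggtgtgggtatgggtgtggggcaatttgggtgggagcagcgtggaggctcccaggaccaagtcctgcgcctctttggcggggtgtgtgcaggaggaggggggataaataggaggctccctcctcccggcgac
HBEGF: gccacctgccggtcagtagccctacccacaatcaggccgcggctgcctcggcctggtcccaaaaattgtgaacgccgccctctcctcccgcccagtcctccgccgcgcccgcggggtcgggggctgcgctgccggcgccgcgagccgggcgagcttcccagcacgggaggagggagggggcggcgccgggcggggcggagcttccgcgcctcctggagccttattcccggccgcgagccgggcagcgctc
Of 35116 windows of this length in the RefSeq table, 1.65% held TGACGTCA, 6.57% TGANTCA, 3.42% CCGGAAGT and 0.72% GCGTGGGCG. Windows were searched for 9 of the 10 genes, all but NRG1, 12 windows in all. The only other match was an AP-1 sequence in that of EGF, starting 17 bases before its start. A match describes letters and shows no binding.

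At T0 the ligand RNAs of BT474 were led by AREG and TGFA. To set genes beside each other, CPM was divided by the length in kb of the MANE Select transcript. AREG stood at 2.98 and 2.66 CPM per kb in the 2 libraries, TGFA at 2.14 and 2.25, NRG3 at 0.984 and 1.03, BTC at 0.86 and 1.09 and EGF at 0.654 and 0.582. NRG3 and BTC overlapped, and changed places when the length of all annotated exons was used; the other neighbours in this order did not overlap. HBEGF (0.18 and 0.145), NRG4 (0.0722 and 0.0609) and NRG2 (0.0395 and 0.0374) were lower still, and EREG and NRG1 were at the limit.

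In BT474R the order at T0 was different, with TGFA first at 2.38 and 1.96 CPM per kb and EGF second at 0.686 and 0.74. AREG followed at 0.584 and 0.228, which overlapped NRG3 at 0.283 and 0.307, and NRG3 overlapped BTC at 0.204 and 0.3. HBEGF stood at 0.0763 and 0.198. NRG4, NRG2, EREG and NRG1 were at or near the limit, and their values overlapped except between NRG2 and EREG.

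**Figure D1:**
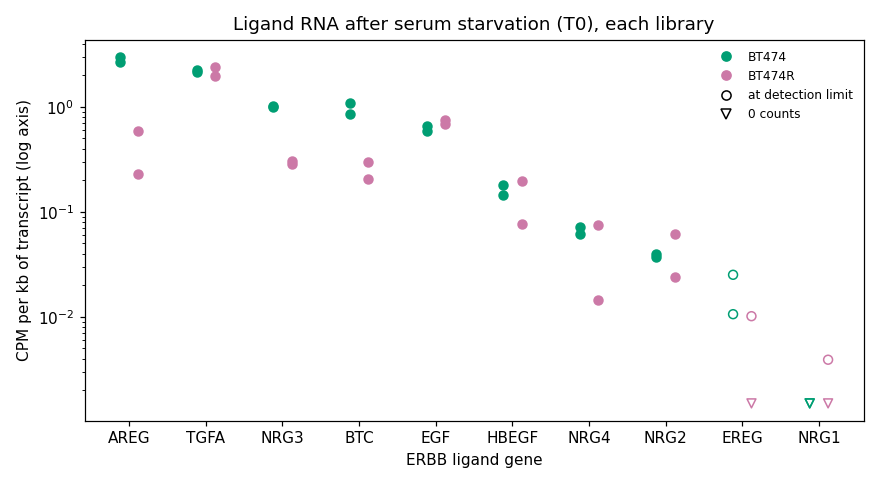
Ligand RNA at T0 in each library (points) of BT474 and BT474R, as CPM per kb of transcript on a log axis; open points are groups at the detection limit and triangles mark 0 counts. AREG, NRG3 and BTC are lower in both BT474R libraries than in both BT474 libraries, while TGFA overlaps between the lines at about 2 CPM per kb.

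Between the lines at T0, AREG, BTC and NRG3 were lower in BT474R and no member was higher. AREG had 3.67 and 3.28 CPM in BT474 and 0.72 and 0.281 CPM in BT474R, a log2 difference of -2.87 ± 0.32 (SE), or 7.3-fold lower (adjusted p = 8.73e-10, from the quasi-likelihood test of edgeR, Benjamini-Hochberg over all genes, as for every adjusted p given here unless another tool is named). Without replicate 1 of BT474R at T0 the difference was -3.64, and without replicate 2 it was -2.31, both called. BTC had 2.28 and 2.89 CPM against 0.54 and 0.796 CPM, a difference of -1.90 ± 0.28, or 3.73-fold lower (adjusted p = 3.29e-07). NRG3 had 3.75 and 3.91 CPM against 1.08 and 1.17 CPM, a difference of -1.76 ± 0.22, or 3.38-fold lower (adjusted p = 1.19e-08). The groups did not overlap for these 3 genes. Of all genes tested, 46.9% were called between the lines at T0, so 3 of 9 tested members is below that share. In bulk RNA, fewer expressing cells and less RNA per cell cannot be told apart.

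TGFA and EGF did not pass the test between the lines. TGFA had 8.82 and 9.24 CPM in BT474 and 9.78 and 8.05 CPM in BT474R, a log2 difference of -0.03 with a 95% interval from -0.285 to 0.231. EGF had 4.18 and 3.72 CPM against 4.38 and 4.73 CPM, a difference of 0.20 with an interval from -0.114 to 0.523. Of the receptors, EGFR was 679 CPM on average in BT474R and 66.5 CPM in BT474 (log2 difference 3.35 ± 0.10, adjusted p = 5.44e-26), ERBB4 was lower in BT474R (-1.63 ± 0.09), and ERBB2 and ERBB3 were higher by 0.21 and 0.32. The 5 fibroblast markers summed to between 75.1 and 105 CPM in BT474 and to between 170 and 295 CPM in BT474R, with 4 of the 5 under 1 CPM in every library and DCN and PDGFRB at or under the floor in both lines; their part in the differences between the lines was not tested.

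AREG was the member called most often with the added ligands, in 9 of 12 comparisons with vehicle. Its largest log2 change (3.04) was close to that of HBEGF (3.02). In BT474, AREG had 5.26 and 3.82 CPM with vehicle at 1 h, 21.0 and 23.3 CPM with EGF and 36.9 and 38.2 CPM with HRG. At 12 h the values were 3.42 and 2.96 CPM with vehicle, 12.0 and 12.8 CPM with EGF and 22.1 and 23.6 CPM with HRG. At 24 h they were 3.39 and 2.62 CPM with vehicle, 13.4 and 13.3 CPM with EGF and 19.3 and 17.3 CPM with HRG. Both treated groups lay above vehicle at every time, and HRG above EGF.

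In BT474, AREG rose with EGF by 2.27 ± 0.12, 1.94 ± 0.13 and 2.16 ± 0.14 on the log2 scale at 1, 12 and 24 h. It rose with HRG by 3.04 ± 0.11, 2.81 ± 0.12 and 2.6 ± 0.13, that is 8.25-fold, 7-fold and 6.07-fold, and the largest adjusted p of the 6 was 9.33e-14. HRG exceeded EGF by 0.78 ± 0.08 at 1 h (adjusted p = 1.51e-07), 0.87 ± 0.10 at 12 h (adjusted p = 1.84e-07) and 0.44 ± 0.10 at 24 h (adjusted p = 0.0155). The doses of the 2 ligands differed, and both ligands were set against the same vehicle libraries. The 24 h difference between the ligands was no longer called without replicate 1 of HRG (0.35, adjusted p = 0.175) or replicate 1 of EGF (0.44, adjusted p = 0.0861). It was also lost with only the 4 libraries compared (adjusted p = 0.144) and in a fit of both lines (adjusted p = 0.133). The 1 h difference was lost with only the 4 libraries compared (adjusted p = 0.325). At 1 h that setting called 0 of all genes tested, so the loss is not particular to AREG.

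In BT474R, AREG was lower throughout and its order of ligands was the other way round at 12 and 24 h. With vehicle it had 1.18 and 1.15 CPM at 1 h, 0.355 and 0.58 CPM at 12 h and 0.576 and 0.564 CPM at 24 h. With EGF it had 2.53 and 2.49, 3.65 and 3.18, and 3.84 and 3.95 CPM at these times. With HRG it had 2.92 and 1.51 CPM at 1 h, 1.34 and 1.33 CPM at 12 h and 0.698 and 0.516 CPM at 24 h. The EGF groups lay above vehicle at all 3 times, and the HRG group overlapped vehicle at 24 h.

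AREG in BT474R rose with EGF by 2.82 ± 0.32 at 12 h (adjusted p = 1.7e-06) and by 2.76 ± 0.31 at 24 h (adjusted p = 1.02e-06). At 1 h the EGF difference of 1.11 ± 0.28 did not pass (adjusted p = 0.109), but it passed in 4 of the 8 other settings tried, with adjusted p from 0.00207 to 0.047. With HRG the difference was 0.95 ± 0.28 at 1 h (adjusted p = 0.546, but 0.0304 with no filter on low counts) and 0.10 ± 0.44 at 24 h (adjusted p = 0.964), the latter with a 95% interval from -0.764 to 0.97. At 12 h AREG rose with HRG by 1.45 ± 0.37 (adjusted p = 0.0249), a call that was lost when any of the 4 libraries was left out, with log2 values between 1.20 and 1.91 and adjusted p between 0.0613 and 0.223, and with only those 4 libraries in the fit (adjusted p = 0.0815). HRG against EGF gave -1.37 ± 0.26 at 12 h (adjusted p = 0.00551) and -2.65 ± 0.31 at 24 h (adjusted p = 6.55e-06). The 12 h call was lost without either HRG replicate (-1.38 and -1.36) or without replicate 1 of EGF (-1.26). The 24 h call was lost only with the 4 compared libraries alone (adjusted p = 0.103). That setting called 0 of all genes tested at 24 h, so the loss is not particular to AREG.

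**Figure D2:**
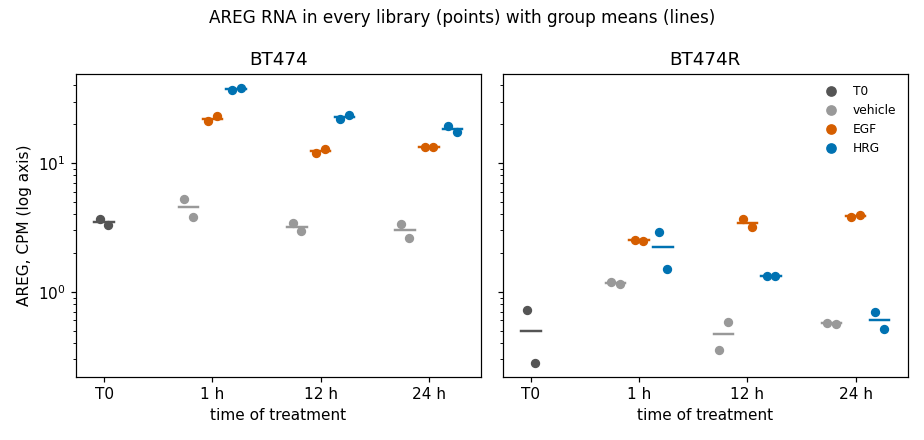
AREG in every library (points, CPM on a log axis) with group means (lines) at T0 and with vehicle, EGF or HRG at 1, 12 and 24 h. In BT474 the HRG libraries are the highest at each time, up to 38.2 CPM; in BT474R the EGF libraries are the highest at 12 and 24 h, up to 3.95 CPM, and HRG at 24 h lies with vehicle.

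The effect of HRG on AREG differed between the lines by the interaction test. The HRG effect in BT474R minus that in BT474 was -2.10 ± 0.30 at 1 h (adjusted p = 2.6e-05), -1.37 ± 0.42 at 12 h (adjusted p = 0.0582, not called) and -2.53 ± 0.48 at 24 h (adjusted p = 0.000776). For EGF the differences were -1.18 ± 0.30, 0.87 ± 0.36 and 0.59 ± 0.36 at 1, 12 and 24 h, with adjusted p of 0.138, 0.307 and 0.498. Other settings called AREG for HRG at 12 h (DESeq2, no filter and only the libraries compared, adjusted p from 0.0163 to 0.0271) and for EGF at 1 h (no filter and only the libraries compared, adjusted p = 0.00966 and 0.0168). Over the 20 groups, AREG ranged from 0.467 CPM on average (BT474R, vehicle, 12 h) to 37.6 CPM (BT474, HRG, 1 h), and the 6 treated groups of BT474 were the 6 highest. BT474R with EGF at 12 h reached 3.41 CPM, which overlapped BT474 at T0 and with vehicle at 12 and 24 h. BT474R with EGF at 24 h reached 3.89 CPM, which lay above those 3 groups and overlapped BT474 with vehicle at 1 h.

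EREG, the neighbour of AREG, was above the detection limit only in BT474, where it was low. Its 2 libraries held 3 and 1 counts at T0, 4 and 2 with vehicle at 1 h, 17 and 11 with EGF and 13 and 18 with HRG. In CPM the last 2 groups had 0.599 and 0.388, and 0.588 and 0.861. At 12 h vehicle held 2 and 2 counts, which is at the limit, EGF 10 and 7 and HRG 8 and 11. At 24 h vehicle held 5 and 2 counts, EGF 9 and 6 and HRG 8 and 5.

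EREG rose in BT474 with HRG at 1 h by 2.40 ± 0.57 (adjusted p = 0.00898). At 12 h it rose with EGF (adjusted p = 0.018) and with HRG (adjusted p = 0.0144); since vehicle was at the limit, the ratios of summed counts are given with exact 95% counting intervals, 5.27 (1.72 to 21.5) and 4.94 (1.64 to 19.96). Such intervals cover counting error only. For these 3 EREG calls DESeq2 gave no adjusted p. EGF at 1 h gave 1.85 ± 0.59 (adjusted p = 0.115), and at 24 h the differences were 1.02 ± 0.64 for EGF and 0.66 ± 0.66 for HRG, neither called. The 1 h call was lost without replicate 2 of vehicle (1.95, adjusted p = 0.21) or of HRG (2.13, adjusted p = 0.138), and without replicate 1 of vehicle it was 3.03 (adjusted p = 0.0346). At 12 h the EGF call was lost without either vehicle library (adjusted p = 0.126 and 0.0759) or replicate 1 of EGF (adjusted p = 0.133), and the HRG call without either vehicle library (adjusted p = 0.103 and 0.0607) or replicate 2 of HRG (adjusted p = 0.0828).

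In BT474R, EREG was at the limit in all 10 groups, with 6 counts summed over 20 libraries and 0 counts in 15 of them. With HRG at 1 h, where BT474R held no count, BT474 was at least 6.76-fold higher against a floor of 3 counts per library, and at 12 h at least 3.27-fold higher with HRG and at least 3.01-fold higher with EGF. With EGF at 1 h BT474R held 1 count, and the ratio was 24.8 (4.10 to 1014). EREG did not pass the filter in BT474R and was not tested there. It passed in the fit of both lines through its BT474 counts, so it is among the 9 members tested at T0 and in the interactions.

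HBEGF, whose product binds EGFR and ERBB4 and is tethered by heparan sulphate, moved with the ligands in both lines, in BT474R most with EGF. In BT474 at 1 h it had 0.595 and 0.714 CPM with vehicle, 1.13 and 1.59 CPM with EGF and 1.63 and 1.91 CPM with HRG. It rose with HRG by 1.41 ± 0.33 (adjusted p = 0.00667), while the EGF difference of 1.02 ± 0.33 was not called (adjusted p = 0.117). The HRG call was lost with DESeq2 (adjusted p = 0.108), without either vehicle library (adjusted p = 0.122 and 0.0518) and without replicate 2 of HRG (adjusted p = 0.0878). At 12 and 24 h HBEGF in BT474 stayed between 0.172 and 0.559 CPM in all libraries, with log2 differences between -0.61 and 0.63, none called.

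In BT474R, HBEGF had 0.296 and 0.619 CPM with vehicle at 1 h and 1.79 and 2.20 CPM with EGF, a rise of 2.05 ± 0.37 (adjusted p = 0.00613). At 12 h vehicle held 3 and 3 counts, at the limit, and EGF 29 and 17 counts (1.14 and 0.794 CPM), a ratio of 8.49 (3.62 to 24.3; adjusted p = 0.00093). At 24 h vehicle had 0.154 and 0.188 CPM and EGF 0.523 and 1.34 CPM, a rise of 2.44 ± 0.55 (adjusted p = 0.00298). EGF lay above vehicle at each time, but its 24 h libraries were far apart, and without replicate 2 of EGF the value was 1.61 (adjusted p = 0.126). The 1 h call was lost without replicate 1 of vehicle (1.68, adjusted p = 0.23) or replicate 2 of EGF (1.91, adjusted p = 0.136), and was 2.74 without replicate 2 of vehicle (adjusted p = 0.0222).

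With HRG, HBEGF in BT474R had 1.44 and 1.10 CPM at 1 h, a difference of 1.41 ± 0.39 that was not called (adjusted p = 0.437, but 0.0149 with no filter on low counts). It had 6 and 5 counts at 12 h and 3 and 2 counts at 24 h, the latter at the limit. HRG against EGF gave -2.25 ± 0.51 at 12 h (adjusted p = 0.0212), and at 24 h EGF exceeded HRG by a ratio of 8.11 (3.23 to 26.2; adjusted p = 0.004). The 12 h call was lost without replicate 1 of HRG (-2.39, adjusted p = 0.182), replicate 2 of HRG (-2.11, adjusted p = 0.237) or replicate 1 of EGF (-1.94, adjusted p = 0.393), and the 24 h call without replicate 2 of EGF (-2.11, adjusted p = 0.158). With only the 4 libraries compared, both were lost (adjusted p = 0.088 and 0.46), but at 24 h that setting called 0 of all genes tested. The EGF effect in BT474R minus that in BT474 was 2.92 ± 0.84 at 12 h (adjusted p = 0.0602) and 2.31 ± 0.71 at 24 h (adjusted p = 0.0573), neither called, though each passed in 4 of the 7 other settings tried.

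BTC was called at 12 and 24 h, and in neither line at 1 h, when its vehicle and treated libraries lay between 2.62 and 3.11 CPM in BT474 and between 0.806 and 1.06 CPM in BT474R. In BT474 it had 3.48 and 2.44 CPM with vehicle at 12 h, 4.01 and 3.36 CPM with EGF and 6.56 and 5.83 CPM with HRG. At 24 h it had 2.54 and 1.90 CPM with vehicle, 3.17 and 4.44 CPM with EGF and 4.48 and 4.30 CPM with HRG. Both HRG groups lay above vehicle; the EGF group overlapped vehicle at 12 h and lay above it at 24 h. BTC rose with HRG by 1.02 ± 0.17 at 12 h (adjusted p = 7.95e-06) and by 0.98 ± 0.19 at 24 h (adjusted p = 0.000127), and with EGF by 0.77 ± 0.20 at 24 h (adjusted p = 0.00532).

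HRG exceeded EGF for BTC in BT474 at 12 h by 0.73 ± 0.17 (adjusted p = 0.0107), which was lost when any of the 4 libraries was left out (0.61 to 0.86, adjusted p between 0.0552 and 0.2) and with DESeq2 (adjusted p = 0.0606). The EGF call at 24 h was lost without replicate 2 of vehicle (0.55, adjusted p = 0.181) or of EGF (0.51, adjusted p = 0.146). In BT474R, BTC had 1.02 and 0.852 CPM with vehicle and 1.69 and 1.59 CPM with EGF at 12 h, and 0.73 and 0.894 CPM against 1.40 and 1.42 CPM at 24 h. It rose with EGF by 0.82 ± 0.25 (adjusted p = 0.0369) and 0.80 ± 0.27 (adjusted p = 0.0441). Both calls were lost when any of their 4 libraries was left out, with log2 values of 0.71 to 0.95 and 0.65 to 0.95, and with DESeq2 (adjusted p = 0.18 and 0.186); the 24 h call was also lost with no filter on low counts (adjusted p = 0.0783) and with only the 4 libraries compared (adjusted p = 0.144).

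With HRG, BTC in BT474R had 0.93 and 1.22 CPM at 12 h and 0.698 and 0.563 CPM at 24 h, and neither difference from vehicle was called. HRG against EGF at 24 h gave -1.14 ± 0.29 (adjusted p = 0.0204). This call was lost without replicate 2 of HRG (-0.99), without either EGF library (-1.14 and -1.13) and with DESeq2 (adjusted p = 0.126). It was also lost with only the 4 libraries compared (adjusted p = 0.42), where 0 of all genes tested were called. The HRG effect on BTC at 24 h was smaller in BT474R than in BT474 by -1.35 ± 0.39 (adjusted p = 0.0455). Leaving out 7 of the 8 libraries in turn ended this call, with values from -1.58 to -1.10 over all 8, as did DESeq2 (adjusted p = 0.0971), DESeq2 size factors (adjusted p = 0.0567), no filter (adjusted p = 0.0558) and only the 8 libraries compared (adjusted p = 0.329).

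**Figure D3:**
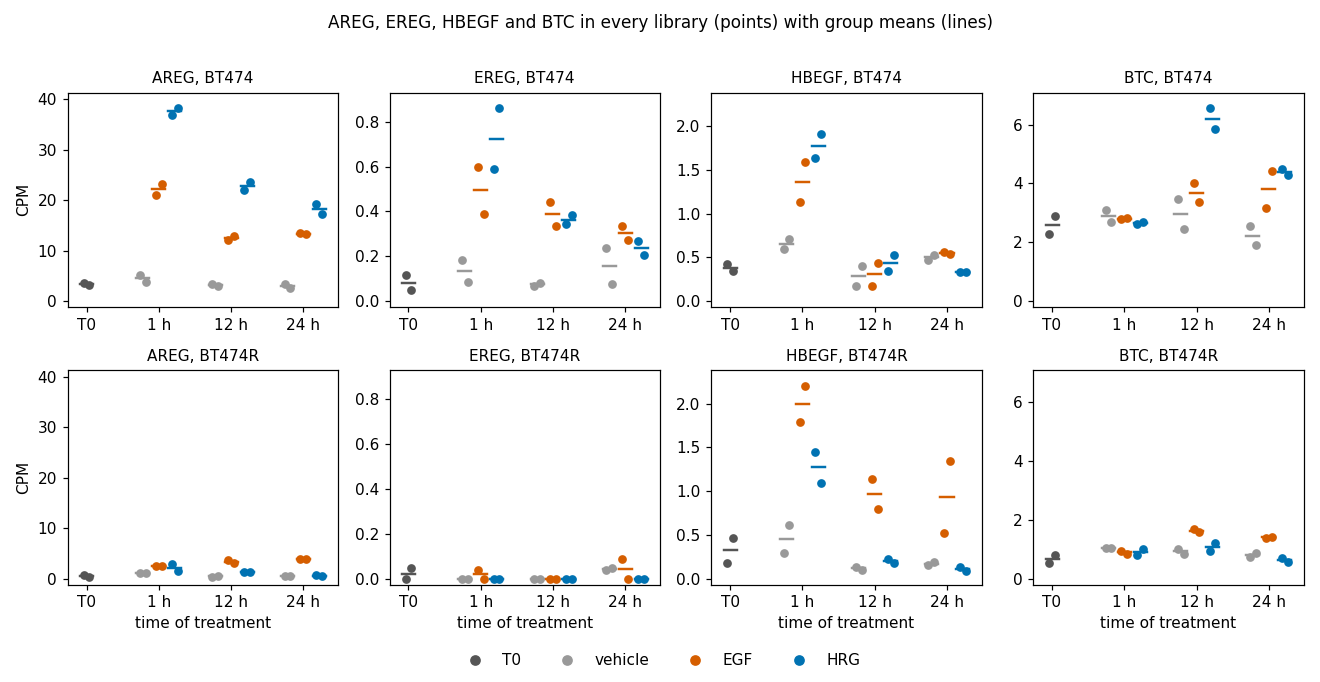
AREG, EREG, HBEGF and BTC in every library (points, CPM) with group means (lines), BT474 above and BT474R below, on the same axis for each gene. Among the BT474 libraries AREG, EREG and HBEGF are highest at 1 h and BTC at 12 h (6.56 CPM with HRG); HBEGF reaches 2.20 CPM in BT474R with EGF at 1 h, and EREG stays at the detection limit in BT474R.

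NRG3, a neuregulin whose receptor is ERBB4, was the member that fell in BT474. It had 3.10 and 3.36 CPM with vehicle at 12 h and 2.42 and 2.33 CPM with HRG, and at 24 h 4.66 and 3.53 CPM with vehicle, 2.72 and 2.31 CPM with EGF and 2.22 and 1.76 CPM with HRG. The treated groups lay below vehicle. NRG3 fell by 1.03 ± 0.18 on the log2 scale with HRG at 24 h (adjusted p = 2.14e-05), by 0.69 ± 0.17 with EGF at 24 h (adjusted p = 0.0041) and by 0.47 ± 0.18 with HRG at 12 h (adjusted p = 0.0455). The EGF call was lost without replicate 1 of vehicle (-0.49, adjusted p = 0.116). The 12 h call was lost when any of the 4 libraries was left out (-0.54 to -0.41, adjusted p between 0.0845 and 0.204), with DESeq2 (adjusted p = 0.154), DESeq2 size factors (adjusted p = 0.0516), no filter (adjusted p = 0.0649) and both lines in 1 fit (adjusted p = 0.0674). In BT474R, NRG3 lay between 0.467 and 1.46 CPM, its differences from vehicle between -0.86 and 0.31, and none was called.

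ERBB4, the receptor of NRG3, fell in BT474 at 12 and 24 h with both ligands. EGF lowered it by 0.92 and 0.85 on the log2 scale, HRG by 1.33 and 0.97. In BT474R it fell by 1.53 and 1.30 (EGF) and by 0.95 and 0.63 (HRG). The last was not called without replicate 1 of vehicle (-0.55). Nor was it called with only the 4 libraries compared (adjusted p = 0.828), where 0 of all genes tested were called. In BT474, ERBB3 fell with HRG by 0.39 at 12 h and by 0.27 at 24 h, and with EGF by 0.18 and 0.12. ERBB2 fell there with HRG by 0.10 and 0.20, and with EGF at 24 h by 0.09. The EGF calls at 24 h were lost without replicate 2 of vehicle (adjusted p = 0.313 for ERBB3 and 0.205 for ERBB2), that of ERBB3 also without replicate 2 of EGF (adjusted p = 0.0684), and both with only the 4 libraries compared (adjusted p = 0.174 and 0.212) or both lines in 1 fit (adjusted p = 0.144 and 0.17). The ERBB2 call with HRG at 12 h was lost without replicate 2 of vehicle (adjusted p = 0.057) or replicate 1 of HRG (adjusted p = 0.0559), and with both lines in 1 fit (adjusted p = 0.22). EGFR rose with HRG at 12 h in BT474 (0.36 ± 0.06, adjusted p = 2.05e-05). No receptor was called with either ligand at 1 h.

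The EGF gene itself was transcribed in both lines and changed little. Over all libraries it ranged from 2.73 to 5.17 CPM in BT474, with no ligand comparison called, and from 2.99 to 6.23 CPM in BT474R. In BT474R it had 4.48 and 4.16 CPM with vehicle and 3.10 and 2.99 CPM with EGF at 12 h, and 6.23 and 5.22 CPM against 4.27 and 4.44 CPM at 24 h. It fell with added EGF by 0.50 ± 0.15 (adjusted p = 0.0302) and 0.40 ± 0.14 (adjusted p = 0.0466). The 12 h call was lost when any of the 4 libraries was left out (-0.53 to -0.44, adjusted p between 0.0993 and 0.195), with DESeq2 (adjusted p = 0.123) and with no filter (adjusted p = 0.0867). The 24 h call was lost without replicate 1 of vehicle (-0.26, adjusted p = 0.416) or either EGF library (adjusted p = 0.17 and 0.137), with DESeq2 (adjusted p = 0.169), no filter (adjusted p = 0.106), only the 4 libraries compared (adjusted p = 0.162) and both lines in 1 fit (adjusted p = 0.051).

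TGFA, an EGFR ligand, was the most even of the abundant members. It ranged from 7.76 to 12.1 CPM in BT474 and from 6.61 to 11.2 CPM in BT474R, and its 12 differences from vehicle lay between -0.08 and 0.42, none called. Its treated group lay above vehicle in 9 of the 12 comparisons and overlapped it in 3. The largest difference was with EGF at 24 h in BT474R, 9.07 and 9.85 CPM against 6.61 and 7.52 CPM (0.42 ± 0.15, adjusted p = 0.0526), and this passed in 6 of the 8 other settings tried, with adjusted p from 0.0152 to 0.0486. In BT474, the HRG difference at 24 h (0.26, adjusted p = 0.0789) passed with the replicate block (adjusted p = 0.0486) and with the block within each time point (adjusted p = 0.0473), and that at 12 h (0.24, adjusted p = 0.0722) with only the 4 libraries compared (adjusted p = 0.0404).

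**Figure D4:**
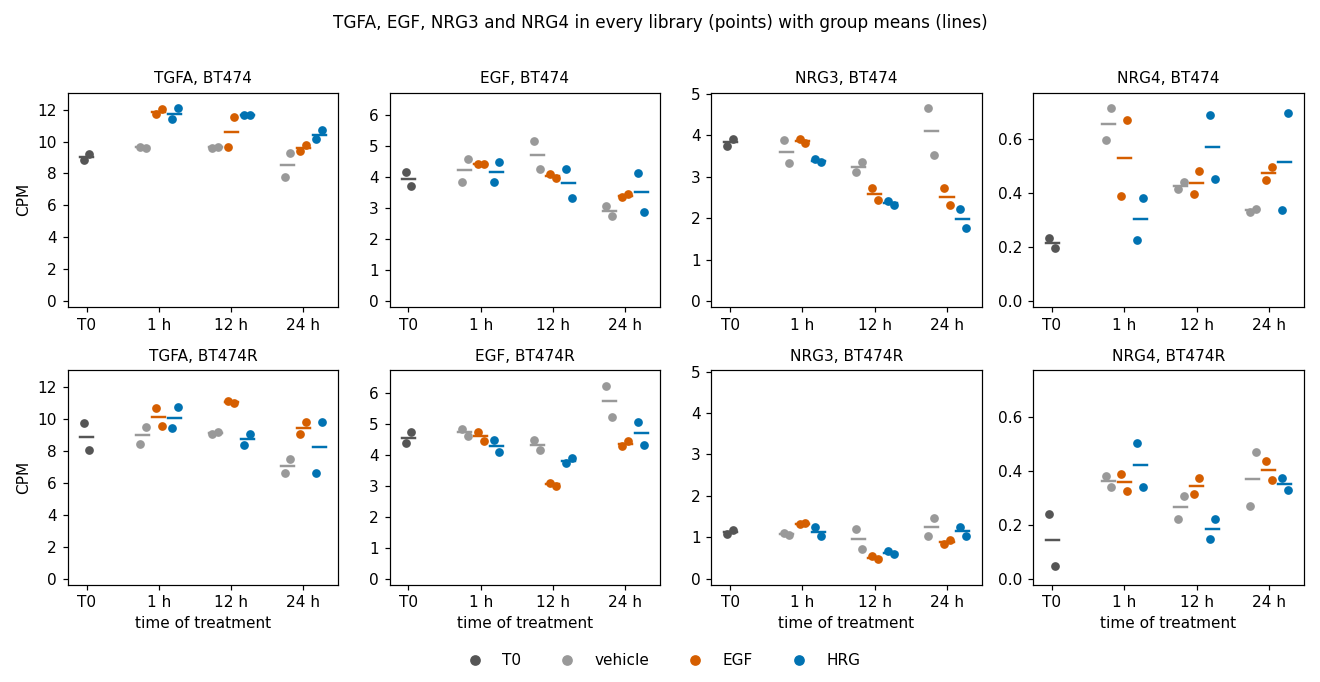
TGFA, EGF, NRG3 and NRG4 in every library (points, CPM) with group means (lines), BT474 above and BT474R below, on the same axis for each gene. TGFA stays between 6.61 and 12.1 CPM throughout, and NRG3 in BT474 is lowest with HRG at 24 h (2.22 and 1.76 CPM).

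NRG1, NRG2 and NRG4 were low or absent from the counts. NRG1, the gene of the added HRG protein, was at the limit in all 20 groups, with 2 counts over the 20 libraries of BT474 and 1 count over those of BT474R; it was not tested. NRG2 had between 2 and 6 counts in BT474 libraries and between 0 and 11 in BT474R libraries, and was at the limit in 5 of 10 groups of each line. NRG4 had between 4 and 19 counts in BT474 and between 1 and 15 in BT474R, and no group was at the limit. Neither NRG2 nor NRG4 was called in any of 12 ligand comparisons, with lowest adjusted p of 0.205 and 0.315.

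NRG4 gave the only member call between vehicle and T0 in the main edgeR fits. In BT474 it had 0.232 and 0.196 CPM at T0 and 0.595 and 0.714 CPM with vehicle at 1 h, a difference of 1.6 ± 0.51 (adjusted p = 0.0494). The call was lost when any of the 4 libraries was left out (1.45 to 1.71, adjusted p between 0.118 and 0.271). In the other 5 comparisons of vehicle with T0, the main edgeR fits called no member, and DESeq2 called none. Members at an unadjusted p below 0.05 numbered 0, 1, 2, 0 and 3 (BT474 at 12 and 24 h, then BT474R at 1, 12 and 24 h). AREG in BT474R had 0.72 and 0.281 CPM at T0 and 1.18 and 1.15 CPM with vehicle at 1 h. This log2 rise of 1.28 was not called (adjusted p = 0.129). It passed with no filter on low counts (adjusted p = 0.0232) and with only the libraries compared (adjusted p = 0.015). TGFA in BT474R at 24 h (-0.32, adjusted p = 0.194) was not called. The block within each time point gave -0.60, but with it T0, which has 1 group per line, rests on replicate 1 alone. That value compares replicate 1 levels and does not judge the difference between the groups. The share of all genes called was 6.61%, 6.41% and 11.4% in BT474 at 1, 12 and 24 h and 2.24%, 1.13% and 13.7% in BT474R.

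Over the 12 comparisons of a ligand with vehicle, 26 of 102 tested pairs of member and comparison were called, 21 up and 5 down. In BT474, EGF moved 1, 2 and 3 of 9 tested members at 1, 12 and 24 h, where 2.19%, 16.0% and 16.4% of all genes were called. HRG moved 3, 4 and 3 members, where 2.77%, 25.8% and 24.1% of all genes were called. The median log2 difference of the members was largest with HRG at 12 h, 0.63, where that of all genes was -0.02. In BT474R, EGF moved 1, 4 and 4 of 8 tested members, where 0.457%, 12.0% and 17.3% of all genes were called. HRG moved 0, 1 and 0, where 0.169%, 4.12% and 2.78% of all genes were called; 2 members at 1 h and 0 at 24 h had an unadjusted p below 0.05, and DESeq2 called none at these 2 times.

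HRG against EGF moved 1, 2 and 1 members in BT474, all towards HRG, where 0.139%, 2.17% and 0.768% of all genes were called at 1, 12 and 24 h. In BT474R it moved 0, 2 and 3, all towards EGF, where 0.0494%, 1.42% and 5.18% of all genes were called; at 1 h no member had an unadjusted p below 0.05, and DESeq2 called none. Of the 6 interaction tests, EGF at 1, 12 and 24 h called no member, with 1, 2 and 2 at an unadjusted p below 0.05 and none called by DESeq2, where 0.138%, 1.96% and 4.01% of all genes were called. HRG called 1, 0 and 2 members at 1, 12 and 24 h, where 0.544%, 4.07% and 3.33% of all genes were called. At 12 h, 2 members had an unadjusted p below 0.05, and DESeq2 called AREG (-1.36, adjusted p = 0.0163).

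**Figure D5:**
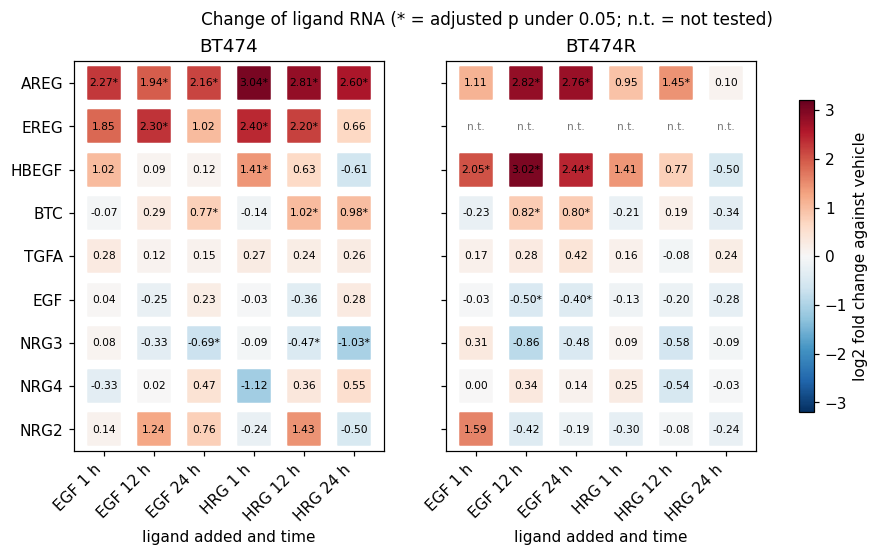
Log2 fold change against vehicle of 9 ligand genes (rows) for each added ligand and time (columns) in BT474 and BT474R; asterisks mark adjusted p under 0.05 and n.t. marks genes not tested. AREG is called in all 6 columns of BT474 and in 3 of BT474R, and HBEGF is called with EGF at all 3 times in BT474R.

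EPGN, the epigen gene beside EREG, was called in 7 of the 12 comparisons of a ligand with vehicle, more than any member except AREG with 9. In BT474 it had 1.10 and 0.967 CPM with vehicle at 1 h, 2.54 and 2.47 CPM with EGF and 3.93 and 4.49 CPM with HRG. It rose with EGF by 1.26 ± 0.25 at 1 h and 1.69 ± 0.40 at 12 h, and with HRG by 2.02 ± 0.23 and 2.16 ± 0.36, with adjusted p of at most 0.00191. At 24 h vehicle held 2 and 1 counts, at the limit, and the ratios were 5.19 (1.49 to 27.8) with EGF and 12.3 (3.94 to 62.1) with HRG, both called. In BT474R it was called with EGF at 24 h, 13 and 10 counts against 1 and 0 (a ratio of 22.9, 3.72 to 943), which stayed called without each library in turn, with log2 values from 3.5 (without replicate 2 of vehicle) to 6.58 (without replicate 1 of vehicle). In BT474 the 1 h EGF call was lost without replicate 2 of vehicle (1.17, adjusted p = 0.0544) and with only the 4 libraries compared (adjusted p = 0.0631). The 24 h EGF call was lost without replicate 2 of vehicle (1.73, adjusted p = 0.254) or replicate 1 of EGF (2.03, adjusted p = 0.157), with DESeq2 (adjusted p = 0.0634) and with only the 4 libraries compared (adjusted p = 0.0793).

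Of 21 genes that process or carry ERBB ligand precursors (sheddases of the ADAM and BACE families, their inhibitors, the iRhoms RHBDF1 and RHBDF2 and their partner FRMD8, and trafficking factors), 20 were tested in BT474 and 19 in BT474R. At 1 h edgeR and DESeq2 called 0 of them in either line, and 1 (EGF in BT474R) had an unadjusted p below 0.05. At 12 h in BT474, EGF gave 4 calls, all of them higher, and HRG gave 7, of which ADAM17 alone was lower. At 24 h EGF gave 4 calls and HRG 5, RHBDF1 being the gene that was lower in each case. Of all genes tested in BT474, 16.0% and 25.8% were called at 12 h with EGF and HRG, and 16.4% and 24.1% at 24 h. In BT474R, EGF gave 3 calls at 12 h, all higher, and 9 at 24 h, of which BACE1 alone was lower, where 12.0% and 17.3% of all genes were called. HRG gave 0 calls there at 12 and 24 h by edgeR and 0 by DESeq2, with 1 and 4 genes at an unadjusted p below 0.05. With EGF at 24 h in BT474, DESeq2 called 2. The genes described next were picked after their values were seen. BACE2, an aspartyl protease, rose in all 4 late comparisons of BT474, by 0.77 to 0.87, and with EGF in BT474R by 0.36 and 0.57. The 12 h value in BT474R was lost without replicate 1 of vehicle (0.31, adjusted p = 0.133) or either EGF library (adjusted p = 0.114 and 0.0677). CNIH1, a cargo receptor for TGFA-type precursors, rose with HRG in BT474 by 0.46 and 0.40 at 12 and 24 h. It also rose with EGF, by 0.31 and 0.22 at these times in BT474 and by 0.28 at 24 h in BT474R. The EGF call at 24 h in BT474 was lost without replicate 2 of vehicle (0.18) or of EGF (0.11). ADAM17, the main sheddase of AREG, fell with HRG at 12 h in BT474 (-0.21 ± 0.05) and rose with EGF at 24 h in BT474R (0.21 ± 0.06). The first call was lost without replicate 1 of HRG (-0.17, adjusted p = 0.0545), the second without replicate 1 of vehicle (adjusted p = 0.119) or of EGF (adjusted p = 0.0738) and with only the 4 libraries compared (adjusted p = 0.0524).

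At T0, 10 of these 20 genes were higher and 2 lower in BT474R, where 46.9% of all genes were called. BACE2 was at 73.2 CPM on average in BT474R and 5.11 CPM in BT474 (3.84 ± 0.12, adjusted p = 1.93e-25), ADAM9 at 84.0 against 46.5 CPM, ADAM15 at 260 against 142 CPM and ADAM17 at 65.8 against 50.03 CPM. RHBDF2 and RHBDD1 were lower, by 0.46 and 0.59 on the log2 scale.

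The genes whose pattern over the 20 groups was most like that of a member were found by Pearson's r of log2 CPM group means, after each line was centred on its own mean, among 13078 genes. For AREG they were C2CD4A (r = 0.951) and MAFK (r = 0.951), for TGFA MAPKAPK2 (r = 0.909) and ZSWIM6 (r = 0.903), and for BTC RBMS1 (r = 0.902) and NIBAN2 (r = 0.889). For NRG3 they were TESK2 (r = 0.93) and IGFBP5 (r = 0.921), and for EGF IDH1 (r = 0.874) and NAALADL2 (r = 0.824). These are descriptions over groups that share libraries and depth, with the highest values picked from many.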

How the data were processed

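Libraries of mRNA (Kapa HyperPrep kit) were sequenced. Per the methods, the authors checked reads with FastQC 0.11.8, trimmed them with Trim Galore 0.6.6, aligned to GRCh38.p13 and counted reads per gene with Rsubread 2.6.4 (featureCounts). The deposited table holds raw counts of 44584 genes in 40 libraries. Which annotation release was used, and how strand and multi-mapping reads were handled, is not given in the sources used here.

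Samples were grouped by their labels, with 2 libraries per group. A gene entered a fit if 50% or more of its libraries held a read of it (25146 in BT474, 24287 in BT474R, 24641 in both lines together). Each line was fitted with edgeR 4.0.16 (R 4.3.3; TMM, quasi-likelihood F test, Benjamini-Hochberg adjustment over all genes kept, threshold 0.05), and the 40 libraries together for the difference at T0 and the interactions. Errors of log2 fold changes are standard errors. The test of EGF against vehicle at 12 h in BT474 was checked on simulated counts, with changes placed in genes at 1 CPM or more. That check does not cover lower counts or BT474R. Values are printed for both libraries of a group (n = 2), or as a mean or range. A group with 3 counts or fewer of a gene in both libraries was at the detection limit. Depth, from 16794594 to 33387936 counts per library, sets a floor of 0.0929 to 0.18 CPM. Every pair of replicates differed by more than sampling noise.

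Values in every library were drawn in the figures for members averaging 1 CPM or more in a line, and also for EREG, HBEGF and NRG4. The text prints the libraries of the groups it describes and gives ranges or no values for others. Likeness was ranked for members averaging 1 CPM or more in both lines. Members, lists and tests were chosen with earlier results of these data known. Transcript lengths and positions came from GENCODE v44, and promoters from RefSeq (GRCh38.p14). DESeq2 1.42.0 and 8 other settings, leaving out each library among them, were alternatives. Figures were drawn with matplotlib 3.10.9.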

Additional observations from a re-analysis of the deposited data

Results flagged for a closer look

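The effect of HRG on AREG differed between the lines by the test of the interaction itself. At 1 h the log2 change with HRG was 3.04 in BT474 (from 5.26 and 3.82 CPM to 36.9 and 38.2 CPM) and 0.95 in BT474R (from 1.18 and 1.15 CPM to 2.92 and 1.51 CPM). The difference was -2.10 ± 0.30 (adjusted p = 2.6e-05, edgeR), and -2.69 without replicate 1 of HRG in BT474R. At 24 h the changes were 2.6 and 0.10, and the difference was -2.53 ± 0.48 (adjusted p = 0.000776). Both calls held when any of the 8 libraries was left out and in all 7 other settings tried, with adjusted p over the settings of at most 4.54e-05 and 0.0207, and without a library of at most 0.00672 and 0.027.

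The effect of HRG on BTC at 24 h also differed, by -1.35 ± 0.39 (adjusted p = 0.0455, edgeR): the log2 change was 0.98 in BT474 and -0.34 in BT474R. This call held in 3 of 7 other settings and without 1 of the 8 libraries.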

How the results depend on the processing

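Of 42 calls of a member in a comparison, 26 held under every alternative tried and 18 of these also held without each library in turn; none changed direction. DESeq2 gave no adjusted p for 5 of the 42: the 3 EREG calls, AREG for HRG against EGF at 24 h in BT474, and NRG4. These were judged on the other settings alone, so the EREG calls count among the 26 without a DESeq2 result. Calls for a ligand against vehicle numbered 26, and 17 with DESeq2. HRG against EGF gave 9 calls, and 3 with only the libraries compared. That setting called 0 of all genes tested for HRG against EGF at 1 h in BT474 and at 24 h in BT474R. It also called 0 for HRG against vehicle at 24 h in BT474R, so no call in these comparisons could hold with it. Vehicle against T0 gave 1 call, 0 with DESeq2, 2 with no filter on low counts and 2 with only the libraries compared. The ligand effect between lines gave 3 calls, 6 with no filter on low counts, 5 with only the libraries compared, and 5 with the replicate block, both over each line and within each time point.

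Leaving out 1 library gave 21 to 29 calls for a ligand against vehicle, 7 to 9 for HRG against EGF, 0 to 1 for vehicle against T0, 3 for the lines at T0 and 2 to 4 for the ligand effect between lines. Where this left 1 library in a group, it was assumed to vary like the other groups.

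The replicate numbers were not taken to pair the samples: deviations of same-numbered libraries correlated by more than 0.1 in 5 of 18 pairs of groups (-0.0964 to 0.423). With the replicate block, 28 calls were made for a ligand against vehicle and 9 for HRG against EGF. The block within each time point ended the calls of BTC with EGF in BT474R at 12 h (adjusted p = 0.0556) and 24 h (0.0677). It also ended that of EGF with EGF in BT474R at 24 h (0.0663). NRG4 with vehicle at 1 h in BT474 was 1.19 and not called, which keeps it out of the 26 calls held under every alternative. With this block T0 rests on replicate 1 alone, so the NRG4 call is not judged by it. Summing rows of near-identical gene copies was not run, since the table has no such row for a member. Counts near the floor limit what can be said of EREG, NRG1, NRG2, NRG4 and HBEGF, whose changes below the size of their intervals were not detectable at this depth.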
